A study of Mus musculus with 4 samples.

Results

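The kinases and scaffolds around IKKα were followed through 7 genes, Ikbkb, Ikbkg, Ikbke, Tbk1, Map3k14, Map3k7 and Tab2, in mouse lung. The genes were picked by name as the IKK-related kinases and their scaffolds, and every probe set that the platform annotation assigns to exactly 1 of them was taken. All 7 were found among the 18193 genes that the annotation names, with 24 of the 45037 probe sets that are not array controls. Ikbkg and Map3k7 had 6 probe sets each, Ikbkb had 5, Tbk1, Map3k14 and Tab2 had 2 each, and Ikbke had 1.

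The 4 lung samples came from B6/J mice, 2 of them from IKKa floxed and 2 from wild type mice. All of the mice, wild type included, had received adenovirus with Cre recombinase into the trachea, and the lungs were collected 4 months later. Cre removes DNA between loxP sites only in cells that the virus reached, and the labels give neither the share of such cells nor the sex or age of the mice. Each sample was read on 1 single-colour Affymetrix array. Nothing in the labels ties an array to an animal of its own, so the tests measure the spread between these arrays, which may be technical. Chuk, which encodes IKKα itself, is not analysed here, so the loss of IKKα in the floxed lungs was not checked and the groups rest on their labels.

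The IκB kinase complex releases NF-κB transcription factors by phosphorylating the inhibitors that hold them in the cytoplasm. In the canonical arm, ubiquitin chains made at an activated receptor recruit TAK1 through its adaptor TAB2 and recruit IKK through its scaffold NEMO, and TAK1 then activates IKKβ. In the non-canonical arm, NIK activates IKKα, which leads to processing of the NF-κB2 precursor. IKKε and TBK1 are relatives of IKK that phosphorylate interferon regulatory factors downstream of nucleic acid sensors. In lung these kinases act in epithelium, in resident macrophages and in lymphocytes that enter the tissue, and much of their control is exerted on the proteins and not on the transcripts.

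None of the 7 genes changed past the threshold in the IKKa floxed lungs. Of their 24 probe sets, 23 were bright enough to be tested, and 0 passed (limma with Benjamini-Hochberg adjustment over all 31526 probe sets tested, threshold 0.05). The lowest adjusted p among them was 0.397. Over all probe sets tested, 0.546% passed, 0.295% higher and 0.251% lower in the floxed lungs. At an unadjusted p under 0.05 there were 3 of the 23, against 10.8% of all probe sets tested. The log2 fold changes of floxed over wild type lungs, on the scale of log2(intensity + 16), ran from -0.41 to 0.33 with a median of -0.07. Over all probe sets tested the median was -0.03. The median size of the change, regardless of sign, was 0.18 for the 23 probe sets and 0.15 for all.

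Counts of probe sets without overlap between the groups are given beside the shares over all probe sets tested, and the differences were not tested. The floxed and wild type arrays did not overlap for 8 of the 23 probe sets (34.8%), against 42.5% of all probe sets tested. Of the 8, 7 were lower and 1 was higher in the floxed lungs, against 24.1% lower and 18.4% higher without overlap over all probe sets tested. In all, 17 of the 23 log2 fold changes lay below 0, against 55.5% of all. One of them, 1447801_x_at of Map3k7, passed the filter on dim probe sets only through its wild type level, and without it 16 of 22 lay below 0. These probe sets come from only 7 genes, so they are not independent of each other.

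The intervals of these differences depend on the pseudocount, which damps the changes of dim probe sets. The 95% interval of the log2 fold change, not adjusted for the number of probe sets, lay within 2-fold in both directions for 22 of the 23 and within 1.5-fold for 13. The exception at 2-fold was probe set 1435647_at of Ikbkg, with an interval from -1.15 to 0.75. With a pseudocount of 1 in place of 16, the intervals of 15 lay within 2-fold and those of 9 within 1.5-fold. The log2 fold changes then ran from -0.58 (1426627_at of Map3k7) to 0.53 (1450161_at of Ikbkg), and 6 of the 23 were larger in size by over 1.5 times.

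**Figure D1:**
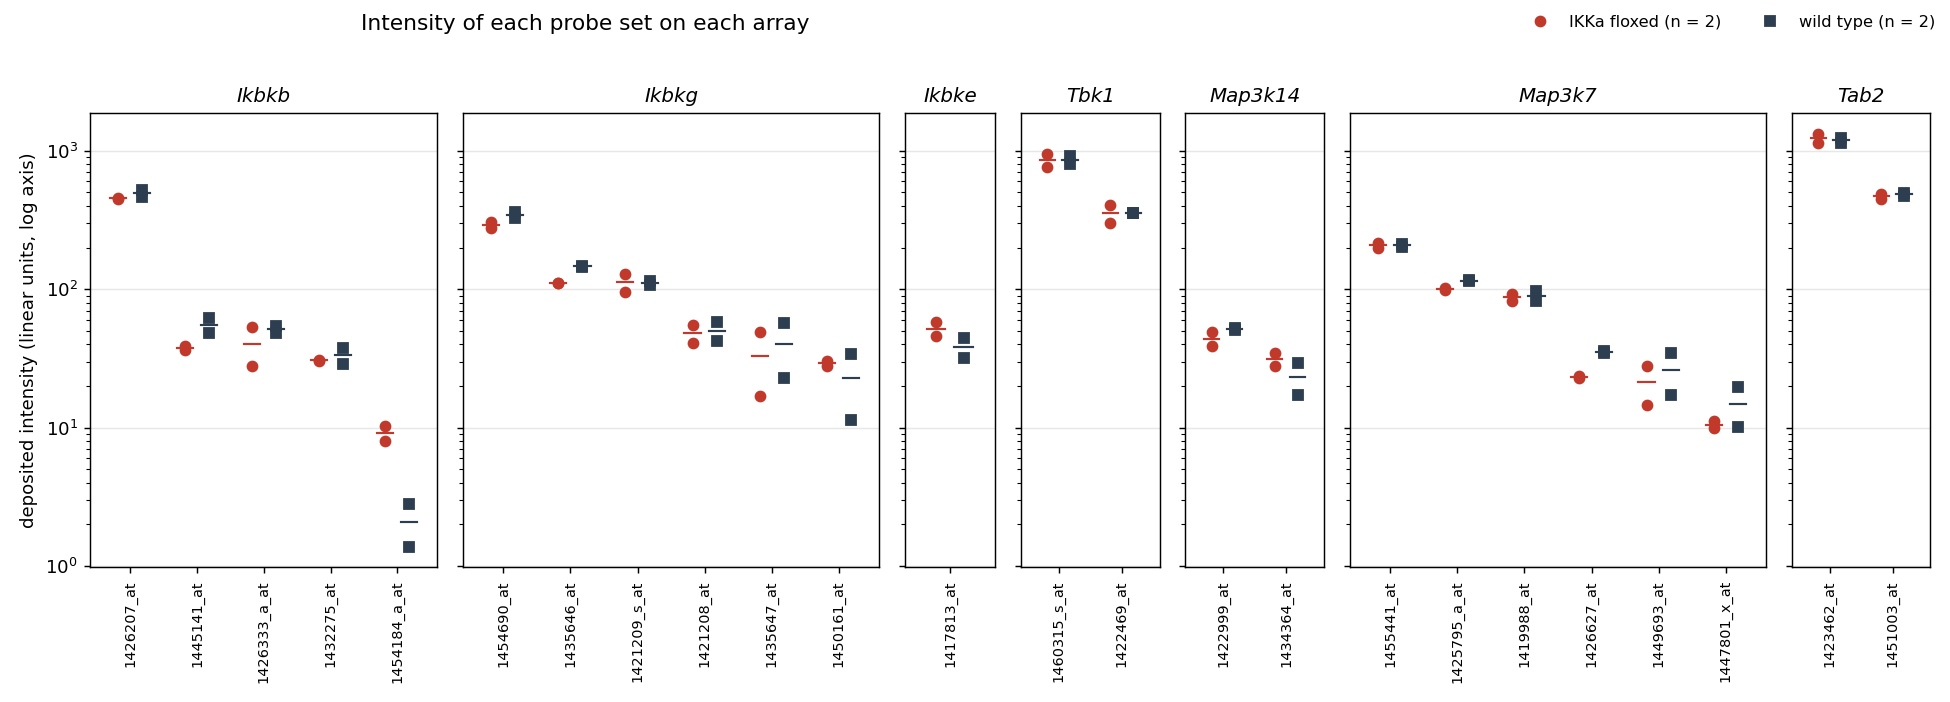
Deposited intensity (log axis) of each of the 24 probe sets on each array, by gene, with IKKa floxed lungs as red circles and wild type lungs as dark squares; short lines are group means. Most pairs of groups overlap, the bright probe sets are tight, and the widest gaps within a group are among dim probe sets of Ikbkg, Ikbkb and Map3k7, while others as dim, such as 1426627_at, are tight too.

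The catalytic subunit of the canonical arm, IKKβ, is encoded by Ikbkb on chromosome 8. Its brightest probe set, 1426207_at, had intensities of 449 and 456 in floxed lungs, against 519 and 464 in wild type lungs. The floxed arrays were the lower ones and nearly equal to each other, while the lower wild type array stood just above them. The log2 fold change was -0.11 ± 0.14 SE (limma adjusted p = 0.817), and its 95% interval ran from -0.46 to 0.23.

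The next, 1445141_at, had 36.2 and 38.5 in floxed lungs and 48.6 and 61.8 in wild type lungs. Its groups did not overlap either, and it showed the lowest log2 fold change among the 23, -0.41 ± 0.16 SE (unadjusted p = 0.0363, limma adjusted p = 0.429). Probe set 1426333_a_at had 52.9 and 27.9 in floxed lungs, against 48.4 and 53.9 in wild type lungs. Here 1 floxed array lay among the wild type arrays and the other far below, so the value of -0.29 ± 0.23 SE rested on floxed replicate 2 and stood at 0.04 without it. Probe set 1432275_at had 30.4 and 31.0 in floxed lungs, against 29.0 and 37.4 in wild type lungs, with overlap and a log2 fold change of -0.07 ± 0.15 SE.

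The fifth Ikbkb probe set, 1454184_a_at, was too dim to be tested. It had 10.3 and 8.04 in floxed lungs, against 2.79 and 1.38 in wild type lungs, below the filter at a mean intensity of 12.7. It was the only Ikbkb probe set whose floxed arrays were the higher ones, and it was designed from the same sequence record as 1432275_at, which overlapped between the groups. All 4 tested Ikbkb probe sets lay below 0, against 55.5% of all probe sets tested, and 2 of the 4 had no overlap, against 42.5% of all.

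NEMO, the regulatory scaffold that binds ubiquitin chains and holds the kinases together, is encoded by Ikbkg on the X chromosome. Its brightest probe set, 1454690_at, had 306 and 279 in floxed lungs, against 364 and 326 in wild type lungs, with no overlap (log2 fold change -0.23 ± 0.15 SE, limma adjusted p = 0.627). Probe set 1435646_at had 110.7 and 110.2 in floxed lungs, against 144 and 148 in wild type lungs. The arrays within each group were nearly equal, and the groups did not overlap. The log2 fold change of 1435646_at was -0.36 ± 0.14 SE (unadjusted p = 0.0368, limma adjusted p = 0.429), with a 95% interval from -0.68 to -0.03.

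The other four Ikbkg probe sets all overlapped between the groups. Probe set 1421209_s_at had 129 and 95.7 in floxed lungs, against 107 and 114 in wild type lungs, so the floxed arrays lay on both sides of the wild type ones (0.01 ± 0.17 SE). Probe set 1421208_at had 55.5 and 41.0 in floxed lungs and 42.2 and 58.3 in wild type lungs (-0.04 ± 0.19 SE). Probe set 1435647_at had 49.2 and 17.0 in floxed lungs, against 23.0 and 57.1 in wild type lungs. In both of these, 1 array of each group was high and the other low, and for 1435647_at the gap within a group was 2.90-fold in floxed and 2.49-fold in wild type lungs. Probe set 1450161_at had 30.4 and 27.9 in floxed lungs, against 11.3 and 34.0 in wild type lungs, and wild type replicate 1 alone was low (0.29 ± 0.28 SE, and -0.15 without that array).

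Ikbkg lies on a chromosome on which the groups differed in another way. The floxed arrays had Xist, the RNA of X inactivation made in females, at 4246 and 4629 on its brightest probe set, against 31.8 and 22.9 on the wild type arrays. The Y-linked gene Eif2s3y was at 3.77 and 6.14 in floxed lungs, against 519 and 530 in wild type lungs. Genotype and the female or male pattern therefore cannot be told apart in these 4 arrays. Over 820 X-linked probe sets tested the median log2 fold change was -0.03, as it was over 25086 autosomal ones (-0.03), and 0.732% and 0.538% of them passed. Of the 6 X-linked probe sets that passed, 3 were those of Xist itself, so the 2 shares are not compared. Among these, 1427262_at and 1427263_at had wild type means of 1.12 and 9.65, below the filter at 12.7, and were tested only through their floxed level.

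**Figure D2:**
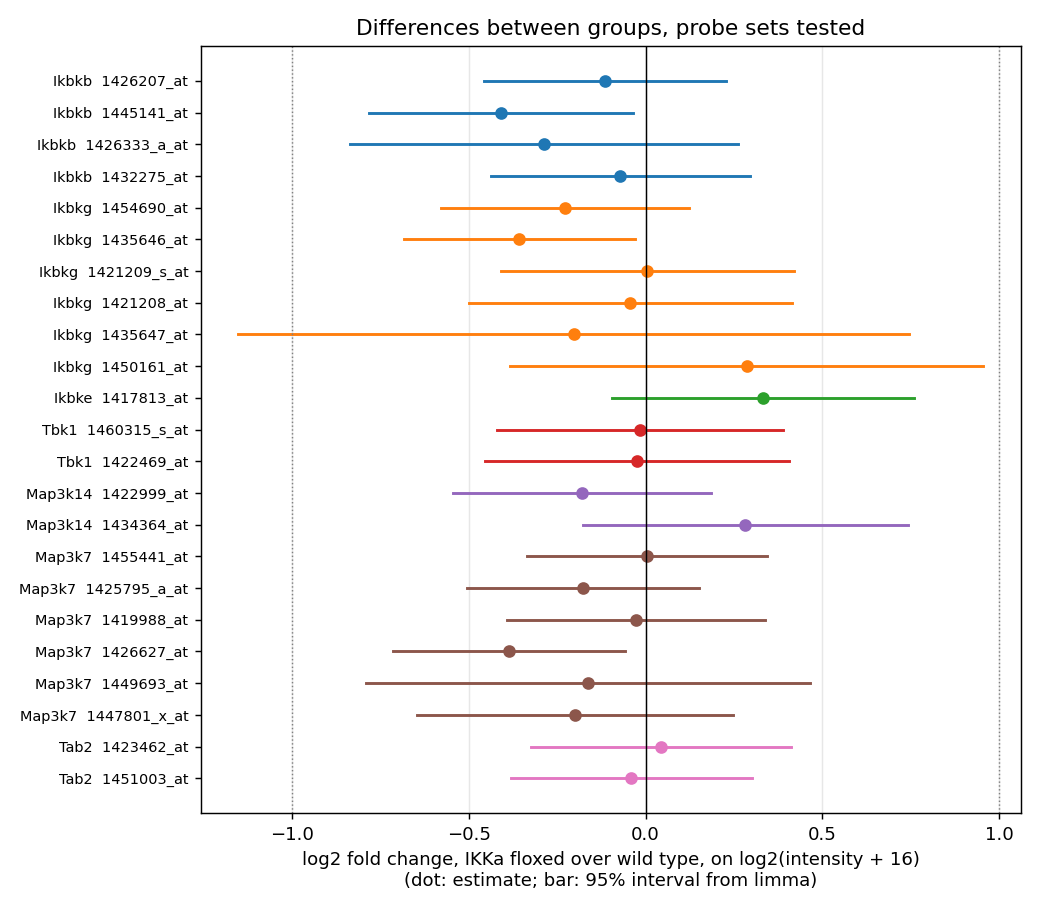
Log2 fold change of IKKa floxed over wild type lungs for the 23 probe sets tested, with the 95% interval from limma (unadjusted); dotted lines mark a 2-fold change in each direction. Only 1445141_at, 1435646_at and 1426627_at have intervals that leave out 0, and none passed after adjustment.

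IKKε, encoded by Ikbke on chromosome 1, is the relative of IKK whose transcript is known to be inducible by inflammatory signals, and it is found mainly in immune cells. Its single probe set, 1417813_at, had 45.9 and 57.9 in floxed lungs, against 32.0 and 44.1 in wild type lungs. Both floxed arrays were above both wild type arrays, by a narrow gap between floxed replicate 1 and wild type replicate 2. Ikbke showed the highest log2 fold change of the 23, 0.33 ± 0.18 SE, with a 95% interval from -0.10 to 0.76 (unadjusted p = 0.108, limma adjusted p = 0.563). Leaving out 1 array gave values for Ikbke between 0.17 and 0.49. All must lie above 0 when the groups do not overlap.

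Markers of T cells, plasma cells and macrophages had higher summed intensities on the same floxed arrays. The summed intensity of 7 T cell markers was 507 to 701 in floxed lungs, against 257 to 269 in wild type lungs. Of 6 T cell genes tested only Cd8a passed, with a probe set whose wild type mean of 12.2 lay below the filter at 12.7 and which was tested only through its floxed level, so that call is not read as a result. The summed intensity of 6 plasma cell markers was 20131 to 22048 in floxed and 5690 to 5794 in wild type lungs, with 3 of 6 genes higher, and that of 8 monocyte and macrophage markers was 5049 to 5721 in floxed and 3888 to 3958 in wild type lungs, with 1 of 8 higher. The summed intensity of the B cell markers was lower, at 304 to 433 in floxed and 456 to 467 in wild type lungs. Of 5 genes 0 passed the threshold, and 2 of 7 probe sets were at an unadjusted p under 0.05. Not all went the same way, and 2 of the 7 log2 fold changes lay above 0. No marker was listed at 0 on any array. The part of these cells in the Ikbke values was not tested, and in RNA of whole lung more cells of a type and more RNA per cell cannot be told apart.

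TBK1, the constitutively expressed partner of IKKε, is encoded by Tbk1 on chromosome 10. Probe set 1460315_s_at had 763 and 947 in floxed lungs, against 919 and 805 in wild type lungs. Probe set 1422469_at had 299 and 406 in floxed lungs, against 354 and 356 in wild type lungs. In both, floxed replicate 1 was the lowest array and floxed replicate 2 the highest, with the wild type arrays between them. The log2 fold changes were -0.02 ± 0.17 SE and -0.02 ± 0.18 SE (limma adjusted p = 0.982 and 0.976), with 95% intervals from -0.42 to 0.39 and from -0.45 to 0.41.

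NIK, encoded by Map3k14 on chromosome 11, is the kinase that activates IKKα in the non-canonical arm, and its protein is held low by constant degradation. The 2 probe sets of Map3k14 differed in sign, a difference that was not tested. Probe set 1422999_at had 48.8 and 38.7 in floxed lungs, against 52.1 and 50.7 in wild type lungs, without overlap (log2 fold change -0.18 ± 0.15 SE, limma adjusted p = 0.716, and -0.30 to -0.058 with an array left out). Probe set 1434364_at had 28.1 and 34.4 in floxed lungs, against 17.2 and 29.2 in wild type lungs, with overlap (0.28 ± 0.19 SE, adjusted p = 0.645). Its value was 0.51 without wild type replicate 2 and 0.060 without wild type replicate 1. With all probe sets of the gene averaged, the value was 0.05 ± 0.12 SE (limma adjusted p = 0.894).

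TAK1, encoded by Map3k7 on chromosome 4, is the kinase upstream of IKKβ and of the stress-activated MAP kinases. Its brightest probe set, 1455441_at, had 198 and 217 in floxed lungs, against 213 and 201 in wild type lungs, with overlap (log2 fold change 0.00 ± 0.14 SE, 95% interval from -0.34 to 0.34). Probe set 1425795_a_at had 102 and 98.0 in floxed lungs, against 114 and 116 in wild type lungs, a small gap without overlap (-0.18 ± 0.14 SE, limma adjusted p = 0.685). Probe set 1419988_at had 92.4 and 82.6 in floxed lungs and 82.1 and 97.1 in wild type lungs, with overlap (-0.03 ± 0.15 SE).

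The dim probe set 1426627_at of Map3k7 had the lowest p of the 23. It had 23.8 and 22.9 in floxed lungs, against 36.0 and 34.7 in wild type lungs, with replicates of each group nearly equal. The log2 fold change was -0.39 ± 0.14 SE (unadjusted p = 0.0277, limma adjusted p = 0.397), between -0.40 and -0.37 whichever array was left out. The 3 brighter probe sets of the same gene, 1455441_at, 1425795_a_at and 1419988_at, stood at 0.00, -0.18 and -0.03, and the difference between probe sets was not tested.

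The remaining probe sets of Map3k7, 1449693_at and 1447801_x_at, spread widely within a group. Probe set 1449693_at had 14.5 and 28.0 in floxed lungs, against 34.6 and 17.2 in wild type lungs (-0.16 ± 0.26 SE). Probe set 1447801_x_at had 11.2 and 9.87 in floxed lungs, against 19.7 and 10.02 in wild type lungs, and passed the filter at 12.7 only through wild type replicate 1. Its value of -0.20 is therefore a description, and it stood at 0.03 without that array. The letters x and s before the ending at mark probe sets whose probes may also bind other transcripts, in Affymetrix naming, so the gene behind their signal is less certain.

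TAB2, the adaptor that couples TAK1 to ubiquitin chains, is encoded by Tab2 on chromosome 10. Probe set 1423462_at had 1137 and 1329 in floxed lungs, against 1245 and 1140 in wild type lungs. Probe set 1451003_at had 450.3 and 491 in floxed lungs, against 470.2 and 498 in wild type lungs. The groups overlapped in both. The log2 fold changes were 0.04 ± 0.15 SE and -0.04 ± 0.14 SE (limma adjusted p = 0.942 and 0.943), and the 95% intervals ran from -0.32 to 0.41 and from -0.38 to 0.30.

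**Figure D3:**
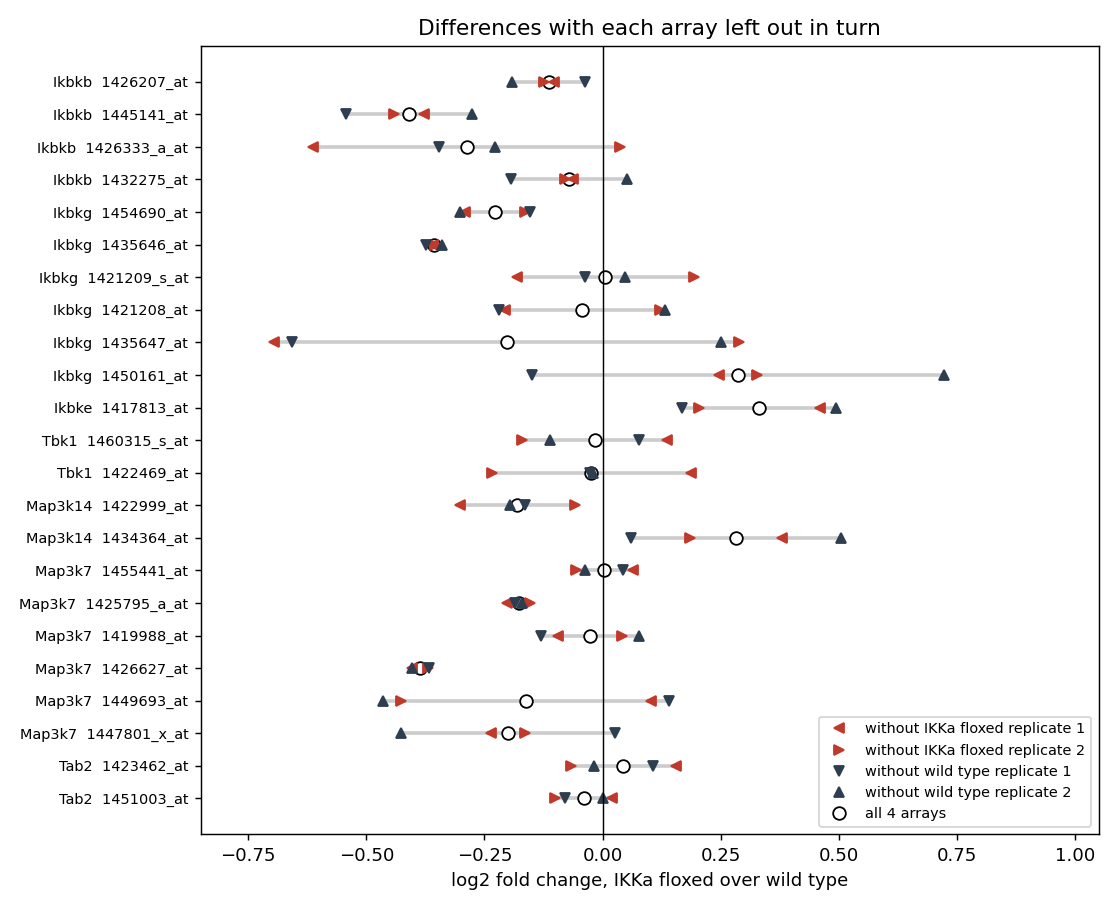
Log2 fold change of IKKa floxed over wild type lungs for the 23 probe sets with all 4 arrays (open circles) and with each array left out in turn (red triangles, a floxed array; dark triangles, a wild type array); grey bars span the latter. For 1435646_at, 1426627_at and 1425795_a_at the values stay close together, while those of 1435647_at and 1450161_at cross 0.

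The probe sets of a gene were compared by their differences between groups and not by their levels, since brightness depends on the probe. Both Tbk1 probe sets, designed from 1 sequence record, differed by 0.01 on the log2 scale in their fold changes, and both Tab2 probe sets, also from 1 record, by 0.08. Of the 3 Ikbkg probe sets that share a record, 1450161_at stood 0.29 above 0 while 1421209_s_at and 1421208_at lay at 0.01 and -0.04. These gaps of 0.28 and 0.33 were not tested, and 1450161_at stood at -0.15 without wild type replicate 1. The other same-record pairs, 1435646_at and 1435647_at of Ikbkg and 1419988_at and 1449693_at of Map3k7, differed by 0.15 and 0.14 in size. The fold changes spanned 0.64 over the 6 probe sets of Ikbkg, 0.39 over the 6 of Map3k7 and 0.34 over the 4 tested ones of Ikbkb. Among the 1266 genes with at least 4 tested probe sets the median span was 0.41, and for 75% of them it was at most 0.56.

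The widest gaps between arrays of a group were among dim probe sets. Of the 24 probe sets, 10 had a mean intensity above 100 over the 4 arrays, and among these the arrays of a group differed by at most 1.36-fold. Among the tested probe sets below 100 the largest gap within a group was 3.004-fold. Of these 13, 8 had a gap wider than any bright probe set and 5 did not, with 1.04-fold for 1426627_at as the narrowest. The log2 fold changes reached 0.36 in size above that level and 0.41 below it.

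No array was low or high for most of the 23 probe sets. Wild type replicate 2 was the highest array for 10 of them and the lowest for 0, against 27.3% and 21.5% of all probe sets tested. Floxed replicate 2 was the lowest for 10 and the highest for 6 (27.7% and 22.8% of all), and floxed replicate 1 the lowest for 8 and the highest for 1 (29.5% and 25.2% of all). A floxed array was thus the lowest for 18 of the 23, against 57.2% of all. The 18 include 1447801_x_at of Map3k7, which passed the filter only through its wild type level. The floxed arrays lay on both sides of the wild type pair for 5 probe sets, against 16.3% of all probe sets tested.

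**Figure D4:**
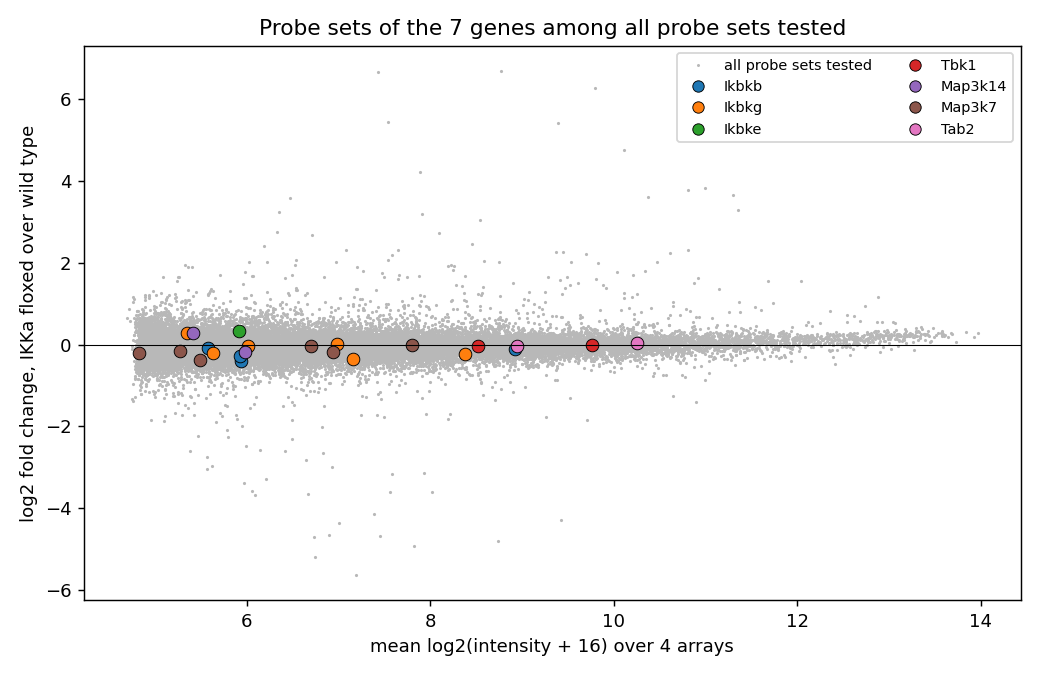
Log2 fold change of IKKa floxed over wild type lungs against mean log2(intensity + 16) over 4 arrays, for all 31526 probe sets tested (grey) and the 23 of the 7 genes (coloured by gene). The 23 lie between -0.41 and 0.33, inside the grey band at their brightness.

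The probe set 1426627_at of Map3k7, which had the largest moderated t statistic of the 23 in size, was used to look for genes with a like profile. The smallest root mean square differences from it, over the 4 arrays and on centred log2 values, were those of Mfsd6 (0.0038), Hhip (0.0045), Synpo2 (0.011), Pak3 (0.012) and Galnt13 (0.014). Their log2 fold changes lay between -0.40 and -0.38, and none passed (limma adjusted p = 0.383 to 0.405). With 4 arrays such likeness is common, and 215 probe sets with a gene name lay within 0.05 of this profile.

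The partners of the 7 genes were read through 7 lists by role, with 71 genes, of which 63 had a probe set with that name and 61 had one bright enough to be tested. None of the 61 passed with any of 129 probe sets (limma, adjusted over all probe sets tested), against 0.546% of all probe sets. The median log2 fold change over the 129 was 0.06, against -0.03 over all probe sets tested.

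The substrates of the canonical complex, the NF-κB subunits and the IκB proteins, had a median log2 fold change of 0.23, with 12 of 14 probe sets above 0. Over all probe sets tested, 55.5% lay below 0. Several of the 14 come from the same gene, such as those of Nfkbia and of Nfkbie, so they are not independent of each other. The median was 0.13 without wild type replicate 1 and 0.35 without wild type replicate 2. Of their 8 genes 0 passed, and 3 of 14 probe sets (21.4%) were at an unadjusted p under 0.05, against 10.8% of all probe sets tested. Nfkbie, which encodes the inhibitor IκBε and is itself an NF-κB target, had 206 and 170 in floxed lungs, against 114 and 113 in wild type lungs, with no overlap (log2 fold change 0.65 ± 0.15 SE, limma adjusted p = 0.211). Nfkb2, the precursor processed in the non-canonical arm, had 41.2 and 69.6 in floxed lungs, against 17.5 and 34.7 in wild type lungs (0.76 ± 0.27 SE, adjusted p = 0.391), while its other probe set stood at -0.18.

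Receptors and ligands upstream of NIK also had a median of 0.23, with 10 of 11 probe sets above 0. Over all probe sets tested, 55.5% lay below 0. The 10 include 1422283_at of Cd40lg, whose wild type mean of 12.5 lay below the filter at 12.7. It was tested only through its floxed level, so its sign is not read as a result. Several of the 11 come from the same gene, such as those of Cd40, so they are not independent of each other. Of their 7 genes 0 passed (1 of 11 probe sets, 9.09%, at an unadjusted p under 0.05). Ltb, a lymphotoxin chain made by lymphocytes, had 251 and 198 in floxed lungs, against 131 and 162 in wild type lungs (log2 fold change 0.57 ± 0.18 SE, limma adjusted p = 0.348). Cd40, a receptor of antigen-presenting cells, had 129 and 103 in floxed lungs, against 83.6 and 87.5 in wild type lungs (0.37 ± 0.16 SE, adjusted p = 0.472). The summed T cell, plasma cell and macrophage markers given above were higher on the same floxed arrays and those of B cells lower, and their part in these values was not tested.

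Adaptors, sensors and substrates of TBK1 and IKKε had a median of 0.10, with 14 of 23 probe sets above 0. Of their 12 genes 0 passed. At an unadjusted p under 0.05 there were 7 of 23 probe sets (30.4%), against 10.8% of all probe sets tested. The share was not tested as such. Several of the 23 come from the same gene, such as those of Ddx58, also among the 7, so they are not independent of each other. Dhx58, an RNA helicase of the RIG-I family, had 53.7 and 43.9 in floxed lungs, against 27.8 and 22.6 in wild type lungs, without overlap (log2 fold change 0.65 ± 0.16 SE, limma adjusted p = 0.220). Cgas, the sensor of cytosolic DNA, had 87.4 and 86.3 in floxed lungs, against 58.6 and 55.4 in wild type lungs (0.50 ± 0.14 SE, adjusted p = 0.285), with its other probe set at -0.07.

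Upstream adaptors and ubiquitin ligases had a median of 0.00, and 0 of 18 genes passed (4 of 36 probe sets, 11.1%, at an unadjusted p under 0.05). Tab1, another adaptor of TAK1, had 28.4 and 33.4 in floxed lungs, against 47.5 and 54.6 in wild type lungs. Its log2 fold change was -0.52 ± 0.15 SE (limma adjusted p = 0.304). Rnf31, the catalytic subunit of the linear ubiquitin ligase whose chains NEMO binds, had 100.3 and 97.0 in floxed lungs, against 69.0 on both wild type arrays (0.43 ± 0.14 SE, adjusted p = 0.345). The 2 genes thus stood on opposite sides of 0. They were named for the largest moderated t statistics of the list in size. Their lack of overlap, found for 42.5% of all probe sets tested, is therefore not read as a result.

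Deubiquitinases and ubiquitin-binding inhibitors had a median of -0.01 over 17 probe sets, and 0 of 7 genes passed (1 probe set, 5.88%, at an unadjusted p under 0.05). Tnfaip3, the ubiquitin-editing inhibitor A20 and an NF-κB target, had 354 and 333 in floxed lungs, against 252 and 226 in wild type lungs (log2 fold change 0.50 ± 0.14 SE, limma adjusted p = 0.306), with its other probe set at -0.01. Tnip1, a partner of A20, had 261 and 297 in floxed lungs and 203 and 232 in wild type lungs (0.34 ± 0.15 SE, adjusted p = 0.495).

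MAP kinases downstream of TAK1 had a median of -0.03 over 18 probe sets, and 0 of 6 genes passed. At an unadjusted p under 0.05 there was 1437045_at of Mapk8, beside 1426104_at of Mapk14, whose p is not read because of the filter. The probe set 1426104_at of Mapk14, the p38α kinase, had 3.60 and 9.10 in floxed lungs, against 23.3 and 24.1 in wild type lungs. Both floxed values lay below the filter, which it passed only through the wild type arrays, so its log2 fold change of -0.84 is a description. The 5 probe sets of Mapk14 ran up to 0.33. For Mapk8, the kinase JNK1, probe set 1437045_at had 82.8 and 88.4 in floxed lungs, against 112 and 128 in wild type lungs (-0.42 ± 0.15 SE, adjusted p = 0.388), and its 5 probe sets ran up to 0.13.

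Chaperones and bridging proteins of the complex had a median of 0.01 over 10 probe sets, and 0 of 3 genes and 0 probe sets passed at either threshold. Cdc37, the kinase cochaperone, stood at -0.28 ± 0.16 SE on 1 probe set and 0.01 on the other (limma adjusted p = 0.594 for the first). Erc1, a bridging protein of the complex, had probe sets from -0.34 to 0.23.

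**Figure D5:**
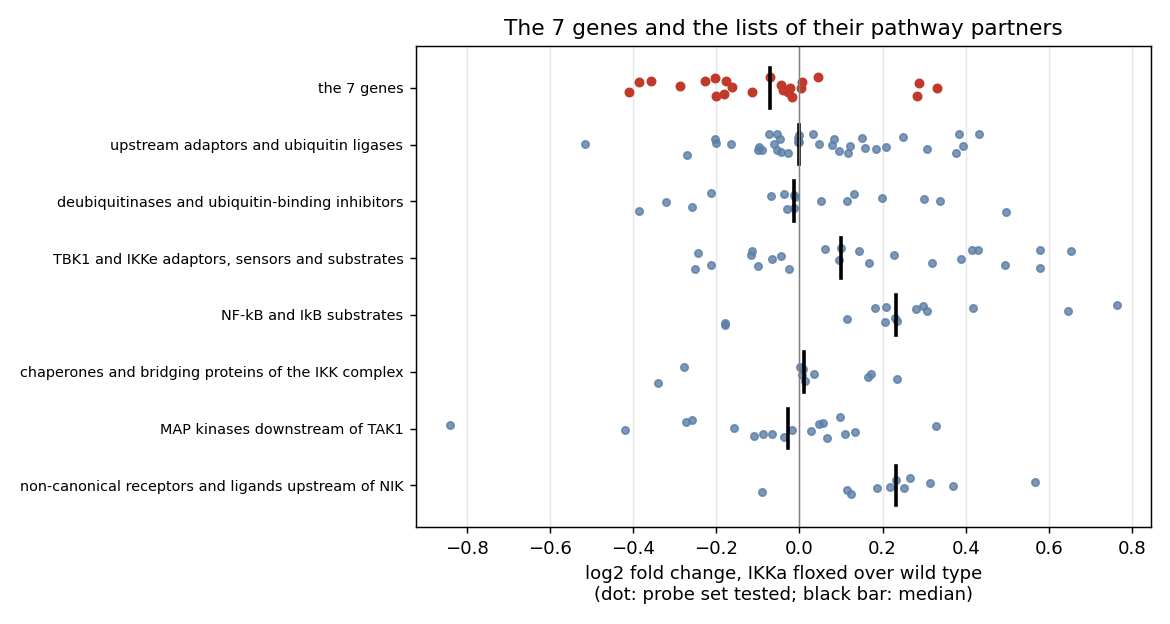
Log2 fold change of IKKa floxed over wild type lungs for each probe set tested of the 7 genes (red) and of the 7 lists of pathway partners (blue), with the median of each as a black bar. The lists of NF-κB and IκB substrates and of receptors and ligands upstream of NIK have medians of 0.23, the 7 genes -0.07, and no point passed the threshold.

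The arrays were alike in scale and differed in the RNA of markers of other tissues. The labelled tissue was borne out by its markers, with 10 of 10 lung epithelial genes tested and a summed intensity of 73382 to 82484 in floxed lungs, against 64607 to 66093 in wild type lungs. Cardiac muscle markers summed to 237 to 286 in floxed lungs and 3424 to 5202 in wild type lungs, with 5 of 8 genes lower. Adipose markers summed to 51.0 to 69.7 in floxed and 705 to 976 in wild type lungs, with 2 of 3 genes lower. Gapdh control probes gave 3′ to 5′ ratios, which track RNA integrity, of 1.44 and 1.68 in floxed lungs, against 1.18 and 1.10 in wild type lungs. The actin control probes gave 2.67 and 2.77 in floxed lungs, against 2.65 and 2.46 in wild type lungs. The part of other tissue, RNA integrity and sex in the values of the 7 genes was not tested.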

How the data were processed

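The values that the authors deposited are linear intensities of each probe set, made with Affymetrix Expression Console per the submitters' processing notes. Version, algorithm and background correction were not given in the sources used here. The 2% trimmed mean was 150.001 on every array, so the intensities had been scaled, and the number of arrays limits the precision. Groups and replicate numbers came from the sample titles.

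The platform annotation gave a single gene symbol to 34945 of 45101 probe sets, and RefSeq (GRCm38.p6) changed 0 of them. No genome build is named for the arrays, so no coordinates are given. List genes without a named probe set are not analysed here.

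Values were taken as log2(intensity + 16), which understates the change of dim probe sets. Array medians differed by 0.0649, under the limit of 0.1 for quantile normalization. Probe sets above the 30th percentile of mean intensity (12.7) were fitted together with limma 3.58.1 in R 4.3.3 (lmFit, then eBayes with its default prior; two-sided; no covariates), with 2 residual and 4.50 prior degrees of freedom. Exact permutation tests are not given, since 0.333 is the smallest p that 2 against 2 arrays allow. The procedure was tested on simulated data, where few changes of 1.5-fold or 2-fold passed the threshold. A probe set that did not pass may therefore still differ between the groups.

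The 7 genes, the lists and the tests were chosen with earlier results of these data known. Named partners are the 2 genes of each list with the largest moderated t statistic in size. Alternatives changed the pseudocount, scaling, filter, prior, level of the fit, replicate block and arrays used.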

Additional observations from a re-analysis of the deposited data

How the results depend on the processing

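Under each of 13 alternatives, 0 probe sets of the 7 genes and 0 genes of the 7 lists passed, and the lowest adjusted p of a probe set of the 7 genes was 0.278 (limma, without floxed replicate 1). With an array left out, 1 group has a single array, which is assumed to vary like the other group, so these p-values say little about stability. The number of all probe sets that passed was 172, and it was 13 with a pseudocount of 1, 521 with 64, 47 with no filter, 264 with a filter at the 50th percentile, 512 with an intensity trend and robust prior, and 84 to 229 with an array left out, the low end without floxed replicate 1. Replicate numbers paired no arrays by the labels, their deviations correlated at -0.025 over probe sets, and with the replicate block 95 passed. The causes were not tested.

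Of 254 values of the 23 probe sets under alternatives, 229 kept their sign. Quantile normalization gave 0.015 for 1421208_at of Ikbkg and 0.023 for 1419988_at of Map3k7. Values of 14 probe sets crossed 0 with an array left out. In Ikbkb, 1426333_a_at ran from -0.61 to 0.038 and 1432275_at from -0.19 to 0.052. In Ikbkg, 1421208_at ran from -0.22 to 0.13, 1421209_s_at from -0.18 to 0.19, 1435647_at from -0.69 to 0.29 and 1450161_at from -0.15 to 0.72. In Map3k7, 1419988_at ran from -0.13 to 0.077, 1447801_x_at from -0.43 to 0.027, 1449693_at from -0.46 to 0.14 and 1455441_at from -0.056 to 0.064. In Tab2, 1423462_at ran from -0.067 to 0.16 and 1451003_at from -0.10 to 0.020. In Tbk1, 1422469_at ran from -0.23 to 0.19 and 1460315_s_at from -0.17 to 0.14. The other 9 kept their sign with an array left out. For the 8 whose groups did not overlap, this was fixed in advance. The untested 1454184_a_at of Ikbkb stood at 0.48 with no filter (limma adjusted p = 0.445).

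Of 91 list medians, 23 moved by more than the spread between replicates. That of upstream adaptors was 0.041 with quantile normalization, 0.032 with the 50th percentile, 0.043 over means of probe sets and 0.021 to 0.078 with an array left out. That of TBK1 and IKKε partners was 0.17 with a pseudocount of 1, 0.19 with the brightest probe set per gene, 0.21 over means and 0.083 to 0.20 with an array left out. That of MAP kinases was -0.023 with a pseudocount of 64, -0.0083 with quantile normalization, -0.037 with either filter, -0.10 over means and -0.047 to -0.036 with an array left out. Deubiquitinases gave 0.11 with the brightest probe set and 0.0017 to 0.10 with an array left out, chaperones -0.014 to 0.13 with an array left out, and NIK receptors and ligands 0.15 with a pseudocount of 64. Leaving out an array gave 0.13 to 0.35 for the NF-κB and IκB median, both ends from leaving out a wild type array. Both ends counted as within the spread between replicates. That spread comes from the same arrays that were left out in turn, so it cannot show that this median is stable. The cause of these moves was not tested.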
